A study of Mus musculus with 2 samples.

Results

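The genes described here build, load or control the primary cilium of the mouse. They are 47 named genes of the 43346 mouse genes in each deposited gene table. They were chosen by symbol for their known roles, though with earlier results of these data known. All 47 symbols were found in both tables. They were put into 9 role groups: the core and the peripheral part of intraflagellar transport complex B (IFT-B), intraflagellar transport complex A (IFT-A), the dynein-2 motor, the BBSome, the factors that assemble or recruit the BBSome, the transition zone, a group of membrane and Hedgehog-linked proteins, and transcriptional regulators. The series holds 2 libraries of total RNA, the biological replicates 1 and 2 of a single group: neural tube of the mouse strain B6NCrl at embryonic day 13.5, with male and female embryos pooled and no treatment or engineered allele in the labels. Each library began from 10 ng of RNA longer than 200 nucleotides with spike-in RNA added. The labels give each library its own tissue sample under a shared donor entry. Since there is 1 group, levels are set beside each other within the libraries, and the only test sets 1 library against the other.

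A primary cilium is a single antenna-like projection on most vertebrate cells, built on a centriole and enclosed by a membrane. Proteins enter and leave it on intraflagellar transport trains: IFT-B links to kinesin-2 for the outward journey, and IFT-A with dynein-2 serves the return journey and the import of membrane proteins. The BBSome is a coat that carries membrane proteins along these trains, and the transition zone is a gate at the ciliary base. In the developing neural tube, Hedgehog signalling, which patterns the ventral cell types, runs through this cilium. Rfx factors bind X-box DNA elements in promoters of ciliary genes, and Foxj1 is the master regulator of motile cilia.

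Because Rfx factors are among the members, the promoters of the members were searched for X-box letters. RefSeq promoter windows on GRCm38.p6, from 250 bases before to 50 bases after the transcription start, were matched for 41 of the 47 genes. A pair was defined as GTTNCC, a gap of 0 to 3 bases, and GGNAAC. A single site was the 7 letters GTTGCCA. Both were searched on both strands, and a single site can lie inside a pair. The 5 members with a pair are shown because they hold the most complete form of the element. Capitals mark the pair with its gap, and the letters run 5′ to 3′ on the strand of the gene.

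Ift57, chr16:49699209-49699271, plus strand: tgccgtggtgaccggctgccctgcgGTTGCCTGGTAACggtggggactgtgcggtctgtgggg
Bbs7, chr3:36613472-36613535, minus strand: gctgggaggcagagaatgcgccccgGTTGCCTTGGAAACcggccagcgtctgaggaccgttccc
Tctn3, chr19:40612334-40612396, minus strand: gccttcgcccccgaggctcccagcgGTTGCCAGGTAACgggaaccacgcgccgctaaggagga
Mks1, chr11:87853183-87853212, plus strand: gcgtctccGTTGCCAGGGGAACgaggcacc
Tctn1, chr5:122264411-122264432, minus strand: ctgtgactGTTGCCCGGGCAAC

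Counted from the annotated start as 0, the pairs began at -60 in Ift57, -121 in Bbs7, -140 in Tctn3, -24 in Mks1 and 36 in Tctn1. The gap between the arms was 1 base in Ift57 and Tctn3 and 2 bases in Bbs7, Mks1 and Tctn1. The genes belong to different machines: Ift57 is a peripheral IFT-B subunit, Bbs7 a BBSome subunit, and Tctn1, Tctn3 and Mks1 are transition zone proteins.

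Another 8 members had a single site without a pair. For these the capitals mark the 7 matched letters, which read TGGCAAC where the site lies on the opposite strand. They are shown to let the bases around the shared letters be compared.

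Ift27, chr15:78174076-78174098, minus strand: tgatgatgGTTGCCAggagcctg
Traf3ip1, chr1:91494564-91494620, plus strand: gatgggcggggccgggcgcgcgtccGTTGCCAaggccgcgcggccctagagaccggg
Tctn2, chr5:124598754-124598776, plus strand: gattggtgGTTGCCAtggctgca
Wdr35, chr12:8974033-8974050, plus strand: cggcggtgGTTGCCAggc
Bbs1, chr19:4906612-4906634, minus strand: ctgagctgGTTGCCAaggcgacg
Ift88, chr14:57424083-57424105, plus strand: gtcgcgccTGGCAACggctgggc
B9d1, chr11:61505155-61505177, plus strand: gagcctccTGGCAACagcgcgcg
Dync2h1, chr9:7177009-7177031, minus strand: acggagctTGGCAACtgctgagt

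Altogether 13 of the 41 matched members, 31.7%, had a pair or a single site, and 5.53% of the 27025 genes of the promoter table did. The share was 5.23% among 10345 detected protein-coding genes, whose windows had a median GC content of 61.3% beside 60% in the members. It was 17.4% among 46 other ciliary genes and 29.6% among 27 motile cilium genes, both lists being described further on. Pairs alone were in 12.2% of members, 10.9% of other ciliary genes, 7.41% of motile cilium genes and 0.936% of all genes there. A looser pair, GTNNCC and GGNNAC with the same gaps, together with the single site, was in 17 members, 41.5%, in 32.6% of other ciliary genes, in 51.9% of motile cilium genes and in 8.44% of all genes there. By role, the transition zone had matches in 5 of 9 genes, IFT-B in 4 of 10, IFT-A in 1 of 4 and the BBSome in 2 of 7. No pair or single site lay in the windows of the 3 BBSome assembly and recruitment genes, the 4 membrane and Hedgehog-linked genes or the 3 regulators matched, which says only that these letters are not in those windows. A match describes letters and does not show binding, which was not measured.

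**Figure D1:**
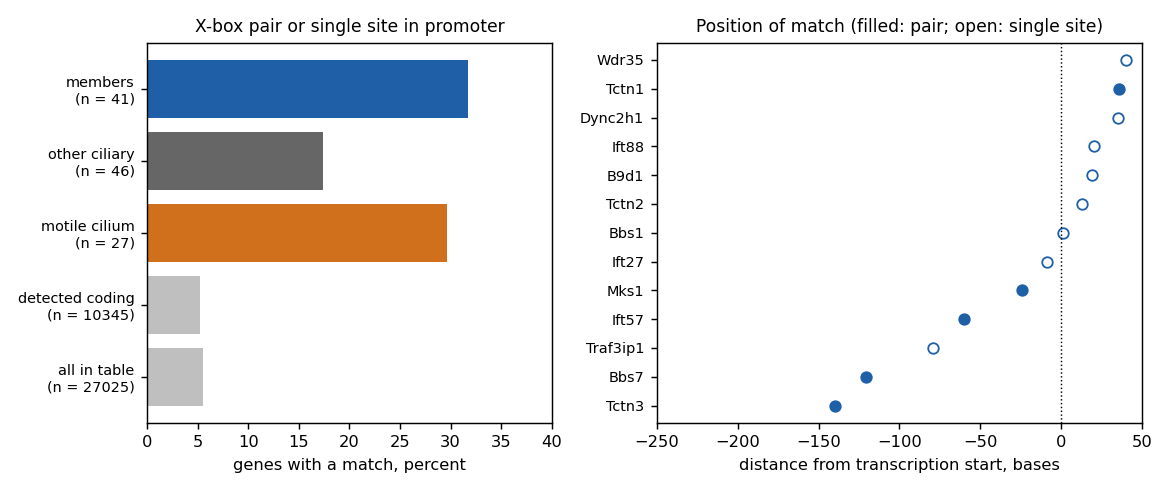
Left, percent of genes whose 300-base promoter window holds an X-box pair or single site, by gene list, with the number of genes matched; right, distance in bases of the match from the transcription start for the 13 members with a match, filled for a pair and open for a single site. Members reach 31.7% and all genes 5.53%, and matches lie on both sides of the start.

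Members with a match were not the more abundant ones. Their median level in replicates 1 and 2 was 10.3 and 11.6 TPM, and that of the 28 without a match was 15.1 and 16.5 TPM. TPM is the read count divided by the effective transcript length and scaled to a fixed sum in each library, and so can be set side by side between genes. The median effective lengths of the groups were 2406 and 2548 bases.

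Every one of the 47 genes was detected, meaning at 1 TPM or more in both libraries, where 61.8% of 21474 protein-coding genes were. At 5 TPM or more in both there were 38 of 47 members and 48.9% of protein-coding genes. The median member had 12.6 and 14.5 TPM in replicates 1 and 2, and the medians of detected protein-coding genes were 18.1 and 19.0 TPM. Mean levels ran 91-fold, from Kif7 at 1.42 TPM to Ift46 at 129 TPM. Ranked by mean level, 29 of the 46 neighbouring pairs of members had overlapping ranges over the libraries, so much of the fine order was not resolved. Replicate 1 held 34125110 expected counts in all and replicate 2 held 22311849, of which members held 38535 and 25476. The lowest member count was 127 in replicate 1 and 85.7 in replicate 2, so the count of no member was a few reads. The TPM of some members, such as Rpgrip1l and Wdr35 below, still came in part from transcripts with few counts.

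**Figure D2:**
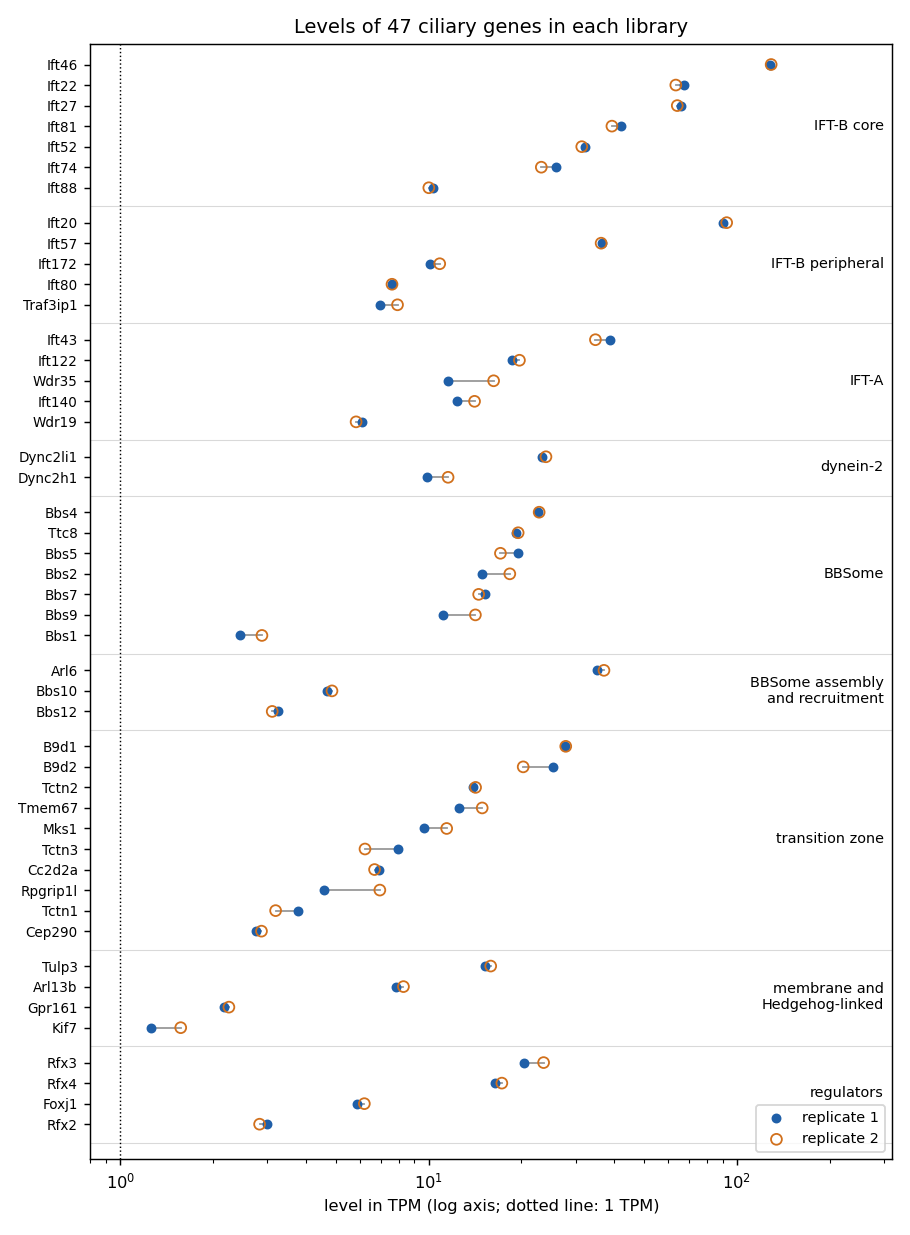
Level in TPM (log axis) of each of the 47 genes, by role group, with 1 point for each of the 2 libraries joined by a line. Ift46, Ift20, Ift22 and Ift27 hold the highest levels, every gene lies above 1 TPM, and Wdr35 and Rpgrip1l have the widest gaps between the libraries.

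The core of IFT-B, the central scaffold of the transport train, was the most abundant of the 9 role groups. Its median over 7 genes was 42.0 and 39.4 TPM in the libraries, given here and below in the order of replicates 1 and 2. Ift46, a core subunit on chromosome 9 at 44767908 to 44793447 (GRCm38), was the highest member at 128 and 129 TPM. Ift22, a small GTPase-like subunit, had 67.4 and 63.4 TPM. Ift27, a second small GTPase of the complex that links it to BBSome export, had 65.7 and 64.1 TPM. The ranges of Ift22 and Ift27 overlapped, and those of all other neighbours in the group did not. Ift88, a subunit whose loss abolishes cilia and Hedgehog patterning, was the lowest of the group at 10.3 and 10.0 TPM, and Ift46 exceeded it 12.5-fold and 12.9-fold. Ift74 and Ift81, which form a tubulin-binding pair, were not at equal levels: Ift74 was at 25.8 and 23.2 TPM and Ift81 at 42.0 and 39.4 TPM. The remaining core gene, Ift52, had 32.3 and 31.4 TPM.

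The peripheral IFT-B genes had a median of 10.1 and 10.9 TPM, so that the core exceeded them by 1.95 ± 0.14 on the log2 scale (SD, n = 2). Ift20, which also works at the Golgi in sending membrane proteins to the cilium, stood apart at 90.3 and 92.7 TPM. Ift57 had 36.6 and 36.3 TPM. Ift172, a very large subunit at the tip of the complex, had 10.1 and 10.9 TPM, and Ift80 had 7.61 TPM in both libraries. Traf3ip1, the mouse symbol of IFT54, was lowest at 6.94 and 7.93 TPM, and Ift20 exceeded it 13-fold and 11.7-fold. Even so, all 12 IFT-B genes stayed above 5 TPM in both libraries.

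IFT-A genes had a median of 12.3 and 16.3 TPM. Ift43 led with 38.9 and 34.8 TPM. It was followed by Ift122, a core subunit of the retrograde complex, at 18.7 and 19.7 TPM. Wdr35, known as IFT121, had 11.6 and 16.3 TPM and overlapped Ift140, at 12.3 and 14.1 TPM. Wdr19, known as IFT144, was lowest at 6.09 and 5.82 TPM. Within each library the IFT-B median was 2.79-fold and 2.08-fold that of IFT-A, a log2 difference of 1.27 ± 0.30 (SD, n = 2). With only long transcripts, a set defined further on and chosen after seeing the data, the core median was 25.8 and 22.9 TPM (Ift74). The peripheral median was 7.91 and 9.03 TPM (Ift57), so the core stayed higher. IFT-A then had 11.4 TPM (Ift140) and 13 TPM (Wdr35). The IFT-B median lay midway between Ift172, at 10.1 and 10.9 TPM, and Ift81, at 17.5 and 20.6 TPM. The lead of IFT-B over IFT-A was thus smaller than with all transcripts. Whether either difference holds with protein-coding transcripts only was not tested.

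Of the dynein-2 motor, which pulls the train back to the base, the light intermediate chain Dync2li1 had 23.3 and 24.0 TPM. Dync2h1, its heavy chain, had 9.9 and 11.6 TPM, and the ranges did not overlap. Dync2li1 therefore exceeded Dync2h1 2.36-fold and 2.08-fold. The outward kinesin-2 motor subunit Kif3a, which is no member, was far above both at 195 and 192 TPM, or 19.7-fold and 16.6-fold Dync2h1. This did not hold for its partner subunit Kif3b, also no member, at 12.5 and 13.1 TPM. Kif3a exceeded Kif3b 15.5-fold and 14.6-fold. The folds over Dync2h1 depend on the transcripts counted. A Dync2h1 transcript of 2892 bases held 62.4% and 68% of its TPM, and the full one of 14264 bases had 1.72 and 2.04 TPM.

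The 7 BBSome subunits among the members had a median of 15.2 and 17.1 TPM, and 6 of them lay in a narrow band. A further subunit that is no member, Bbip1, lay above that band at 33.4 and 34.5 TPM. Of the 7, Bbs4 was highest at 22.6 and 22.9 TPM. Ttc8, the BBS8 subunit, had 19.2 and 19.5 TPM. Bbs5, which binds phosphoinositides, had 19.4 and 17.1 TPM, and Bbs2, part of the core with Bbs7 and Bbs9, had 14.9 and 18.4 TPM. Bbs7 stood at 15.2 and 14.5 TPM and Bbs9 at 11.2 and 14.2 TPM. Of the 6 neighbouring pairs in the ranking, 3 overlapped. Bbs1, the subunit that meets Arl6 at the membrane, was set apart at 2.45 and 2.88 TPM, and Bbs4 exceeded it 9.23-fold and 7.93-fold. Bbs1 was counted over an effective length of 5482 bases in both libraries, the longest of this group.

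Among the genes that build or recruit the BBSome, Arl6, the small GTPase that brings the finished coat to membranes, had 35.1 and 37.1 TPM. Arl6 was thus 14.3-fold and 12.9-fold Bbs1. The chaperonin-like assembly factors among the members were much lower: Bbs10 had 4.67 and 4.86 TPM and Bbs12 had 3.24 and 3.11 TPM. Mkks, a chaperonin-like factor that is no member, was not low, at 31.05 and 24.54 TPM.

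The transition zone genes had a median of 8.84 and 9.2 TPM over 10 members. B9d1, a B9-domain protein of the gate, was highest at 27.7 and 27.9 TPM, and its relative B9d2 followed at 25.3 and 20.3 TPM. Tctn2, a tectonic membrane protein, had 14.0 and 14.2 TPM. The other tectonics were lower, with Tctn3 at 7.97 and 6.22 TPM and Tctn1 at 3.77 and 3.19 TPM. Tmem67, a receptor-like membrane protein known as meckelin, had 12.6 and 14.9 TPM. Mks1, the third B9-domain protein, had 9.7 and 11.5 TPM, and Cc2d2a, a C2-domain protein of the gate, had 6.91 and 6.68 TPM. Rpgrip1l, an organiser of the gate, had 4.58 and 6.95 TPM, which overlapped Cc2d2a. Cep290, the long coiled-coil protein that bridges membrane and microtubules, was lowest at 2.75 and 2.87 TPM, and B9d1 exceeded it 10.1-fold and 9.71-fold. The highest gene was the shortest, with effective lengths of 593 and 576 bases for B9d1, and the lowest was the longest, with 7907 bases for Cep290, but Tctn1, next to lowest, had only 1925 and 1872 bases.

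In the membrane and Hedgehog-linked group, Tulp3, an adaptor that brings membrane receptors to IFT-A, led with 15.2 and 15.9 TPM. One of its cargoes, the Hedgehog-restraining receptor Gpr161, had 2.17 and 2.25 TPM, and Tulp3 exceeded it 7.02-fold and 7.07-fold. Arl13b, a ciliary membrane GTPase widely used as a marker of the cilium, had 7.87 and 8.29 TPM. Kif7, the kinesin that organises the ciliary tip for Gli factors, was lowest of all members at 1.26 and 1.57 TPM. No range in this group overlapped its neighbour.

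The regulators were led by Rfx3 and Rfx4. Rfx3, on chromosome 19 at 27761721 to 28011166 (GRCm38), had 20.5 and 23.6 TPM. Rfx4, which is needed for dorsal midline development of the brain, had 16.4 and 17.3 TPM. Foxj1, on chromosome 11 at 116330704 to 116335399, had 5.87 and 6.19 TPM. Rfx2 had 3.0 and 2.83 TPM. Rfx3 exceeded Rfx4 by 0.38 ± 0.09, Foxj1 by 1.87 ± 0.09 and Rfx2 by 2.92 ± 0.21 on the log2 scale (SD, n = 2), and the ranges of the 4 regulators did not overlap.

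Across the other Rfx paralogues, Rfx7 had 11.3 and 13.0 TPM, below Rfx4. Rfx1 had 4.88 and 4.64 TPM and Rfx5, the factor of MHC class II promoters, had 4.1 and 4.64 TPM, with overlapping ranges. Rfx8, at 0.53 and 0.37 TPM, and Rfx6, a pancreatic islet regulator, at 0.07 and 0.27 TPM, were below the detection level. Thus 6 of the 8 family members were detected, and Rfx3 was the highest.

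Setting the machines against each other within each library, the 17 IFT genes had a median of 25.8 and 23.2 TPM. This was 2.92-fold and 2.52-fold the transition zone median, a log2 difference of 1.44 ± 0.15, and 2.32-fold and 1.98-fold the regulator median, a difference of 1.10 ± 0.16. Over the BBSome the difference was smaller, at 1.7-fold and 1.36-fold, or 0.60 ± 0.23. The BBSome exceeded the transition zone 1.72-fold and 1.86-fold, by 0.84 ± 0.08. Each SD is over n = 2 libraries. An exact sign test over 2 libraries gives no p under 0.5, so none was used. Some of these differences moved with the transcripts counted or the summary used. With only transcripts of at least 50% of the longest annotated length, an alternative chosen after seeing the data, IFT over BBSome came to 0.05 and IFT over transition zone to 0.66, while IFT over regulators stayed at 1.10. With protein-coding transcripts only, IFT over transition zone was 2.00, IFT over BBSome 0.75 and IFT over regulators 1.05. That setting puts Tctn2 at 0, since its models are all listed as noncoding, and drops the leading Cc2d2a transcript, which had no biotype, so the 2.00 carries the doubt about these annotations. With the mean of log2(TPM + 1) in place of the median, BBSome over transition zone was 0.50. The length rule left Ift46 at 2.77 and 2.5 TPM, since its longest model, of 3411 bases, held 2.16% and 1.94% of its TPM.

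Short genes were the abundant ones. The 8 members with an effective length under 1000 bases, which were Bbs5, B9d2, B9d1, Ift43, Ift27, Ift22, Ift20 and Ift46, had mean levels of 18.3 to 129 TPM. The 9 members over 4000 bases, from Kif7 to Rfx3, had 1.42 to 22.04 TPM. Across the 47 genes Spearman's rho between TPM and effective length was -0.74 in replicate 1 and -0.70 in replicate 2, and across 13263 detected protein-coding genes it was -0.29 and -0.28. Genes are not independent replicates, both values of a point come from the same library and length enters TPM as a divisor, so this is a description. Using long transcripts only and the longest annotated length, rho over the members was -0.70 and -0.66.

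**Figure D3:**
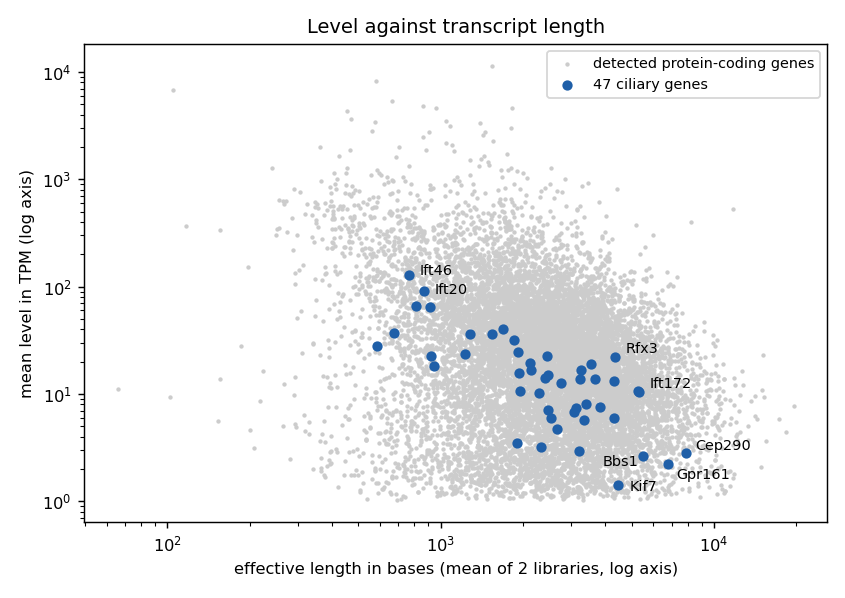
Mean level in TPM against effective length in bases (both log axes, means of 2 libraries) for the 47 genes, in blue, and detected protein-coding genes, in grey. The highest members, Ift46 and Ift20, are among the short ones, and Cep290 and Gpr161 are the longest, with rho of -0.74 and -0.70 in the libraries.

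The libraries gave nearly the same member levels. In a two-sided exact binomial test of rounded expected counts against the effective library shares, with Benjamini-Hochberg adjustment over 17285 genes, 0 of 47 members passed the call, which asked for a 2-fold difference besides an adjusted p under 0.05. Over all genes tested 1.44% were called higher in replicate 2 and 0.781% lower. With DESeq2 size factors the count was also 0. In the exact test, where libraries share a scale set by edgeR's trimmed mean of M values (TMM), 11 members, 23.4%, had an unadjusted p under 0.05, as did 5990 of all genes tested, 34.7%. The test sets 1 library against the other beyond counting error and does not compare conditions. Log2 ratios of replicate 2 over replicate 1 ran from -0.38 to 0.27, with 24 members higher, 23 lower and a median of 0.002, beside 0.000 over all genes. The median size of the ratio regardless of sign was 0.087 in members and 0.136 in all genes. These were not matched on count: all genes include mean counts down to 10, and the lowest member counts were 127 and 85.7. The smaller ratios therefore do not show that members agreed better than genes of like count. With no demand on fold, 5 of 47 members, 10.6%, and 24.6% of all genes passed an adjusted p under 0.05.

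Those 5 members showed small differences, and are named after their values were seen where they fall outside the naming rule. B9d2 went from 527 to 268 expected counts, a scaled log2 ratio of -0.38 with a counting SE of 0.11 (edgeR TMM scaling, exact binomial test, adjusted p = 0.00335). Tctn3 went from 432 to 225 counts, with -0.34 and 0.12 (adjusted p = 0.0191, exact test). Ift74 had -0.19 (adjusted p = 0.0332, exact test). Rfx3 went from 2004 to 1477 counts in the shallower library, a scaled ratio of 0.16 with a counting SE of 0.05 (adjusted p = 0.00903, exact test). Tmem67 had 0.20 (adjusted p = 0.0298, exact test). These genes span IFT-B, the transition zone and the regulators, with 3 lower and 2 higher in replicate 2. With these libraries a common biological coefficient of variation of 9.2% was fitted over all genes, which the counting SE does not include.

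**Figure D4:**
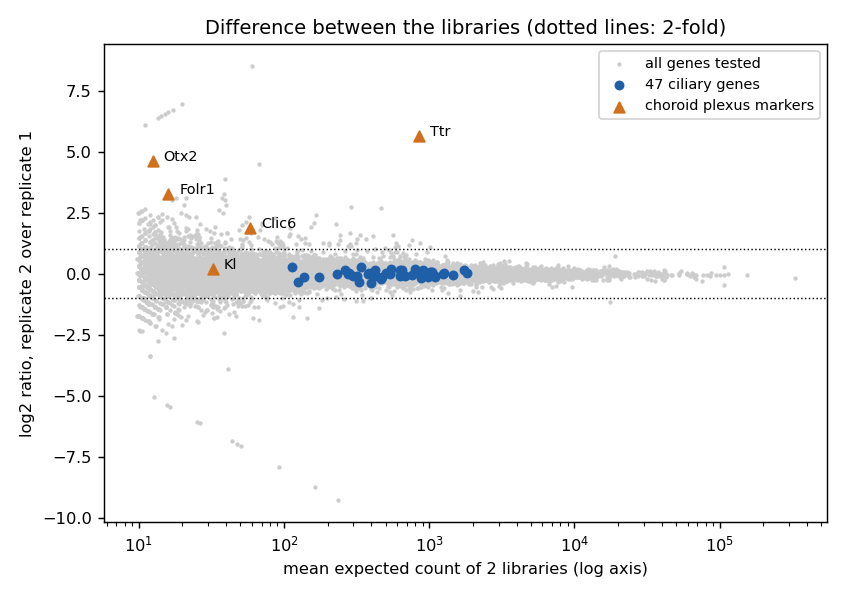
Log2 ratio of replicate 2 over replicate 1 against mean expected count (log axis) for all genes tested, in grey, the 47 genes, in blue, and choroid plexus markers, as orange triangles. All 47 genes lie between -0.38 and 0.27, inside the 2-fold lines, and Ttr lies at 5.66.

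Some tissue content did differ between the libraries. Markers of choroid plexus, a secretory epithelium that carries motile cilia, summed to 3.35 and 109 TPM, and 4 of the 5 were called higher in replicate 2. Ttr, the thyroid hormone carrier secreted by that epithelium, had 1.93 and 103 TPM and so made up most of the sum in replicate 2. The other called markers rested on fewer reads: Clic6 had 34 and 83 counts, Folr1 4 and 28, and Otx2 1 and 24. Only Kl was not called. Foxj1, which that epithelium also expresses, had 5.87 and 6.19 TPM in the same libraries. Muscle markers, 4 of 4 called, summed to 35.8 and 104 TPM, and epidermis markers, 4 of 4 called, to 3.85 and 13.8 TPM. None of the markers of neurons, neural progenitors, floor plate, erythroid cells, mesenchyme, endothelium or macrophages was called. All 5 neuron markers and all 6 progenitor markers were detected, summing to 3227 and 3204 TPM and to 2934 and 2834 TPM. Most of the progenitor sum was Fabp7, at 2061 and 1934 TPM, and Vim, at 725 and 743 TPM. The remaining progenitor markers ran from Pax6, at 12.5 and 12.2 TPM, to Hes5, at 89.1 and 95.0 TPM. Such sums do not compare amounts of cells. Of the 5 floor plate markers, 4 were detected. The part of these other tissues in the member levels was not tested. In bulk tissue, fewer cells of a type and less RNA per cell cannot be told apart, so a level here belongs to the mixture.

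Other ciliary genes, a list of 52 with no member in it that covers kinesin-2, further IFT and transition zone subunits, centriole and trafficking factors, lay at levels near those of the members. Of these, 51 were detected and 45 reached 5 TPM in both libraries, with medians of 14.8 and 15.8 TPM. The highest were Kif3a and Arl2bp, which works with the GTPases Arl2 and Arl3, at 177 and 173 TPM. Arl3, which releases lipid-modified cargo inside the cilium, had 156 and 167 TPM, and Rab8a, a GTPase of vesicle delivery, had 81.4 and 97.4 TPM. Kif17, a homodimeric kinesin, had 1.61 and 1.71 TPM, and Ttc30a2, a copy of an IFT-B gene with close paralogues between which reads may be split, was the one below detection at 0.84 and 0.49 TPM. No gene of the list was called between the libraries, where 1.44% of all genes were called higher in replicate 2 and 0.781% lower. In the exact test 13, 25% of the list beside 34.7% of all genes, had an unadjusted p under 0.05.

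Genes of motile cilia lay at lower levels than both lists. Of 31 genes, 14 were detected and 6 reached 5 TPM in both libraries, with medians of 0.96 and 0.91 TPM. Ccdc40, which sets the spacing of the inner dynein arms, was highest at 15.0 and 17.2 TPM. The radial spoke gene Rsph9 had 15.0 and 13.2 TPM. Spag6l, of the central pair apparatus, had 7.76 and 7.26 TPM, and Cfap43 had 6.33 and 5.75 TPM. At the other end, Hydin, also of the central pair, had 0.03 and 0.04 TPM from 9 and 9.78 counts, and Dnah5, an outer dynein arm heavy chain, had 0.06 and 0.07 TPM from 22 and 16 counts. Mcidas and Ccno, which drive multiciliated cell formation and were picked for that role after their values were seen, had 3 and 3 and 1 and 3 counts. None of the 27 motile genes with enough counts was called between the libraries, where 1.44% of all genes were called higher in replicate 2 and 0.781% lower. In the exact test 3, 11.1% beside 34.7% of all genes, had an unadjusted p under 0.05. Many of these genes had few counts, which lets the test find only large differences. Their median log2 ratio regardless of sign was 0.217, beside 0.136 in all genes, so the low share does not show closer agreement. Foxj1, at 5.87 and 6.19 TPM, lay above the median of this list.

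**Figure D5:**
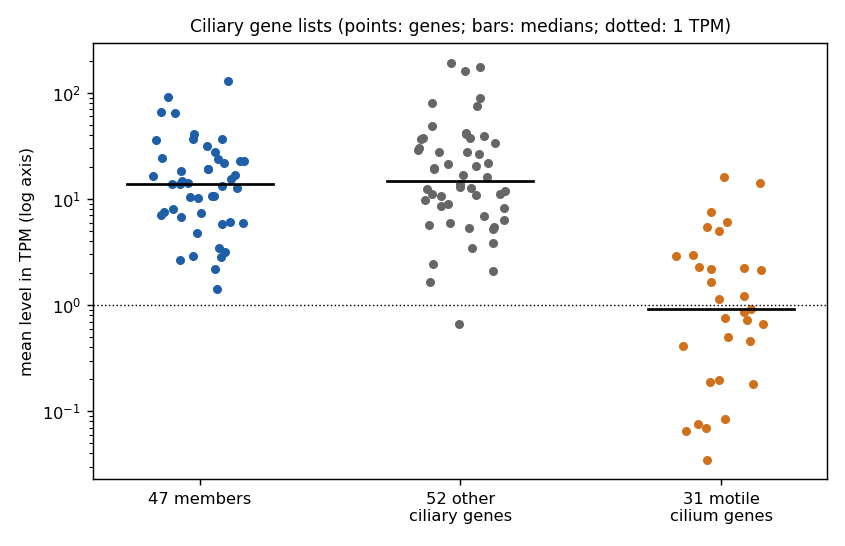
Mean level in TPM (log axis) of each gene of the 47 members, 52 other ciliary genes and 31 motile cilium genes, with bars at the medians and a dotted line at 1 TPM. Both ciliary lists lie above that line except Ttc30a2, and the motile median is 0.92 TPM.

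The transcript tables show where the level of a gene came from. The same transcript led in both libraries for 42 of 47 members, 89.4%, and for 92.4% of detected protein-coding genes. 12 members had a single annotated transcript, Foxj1 among them. The 5 whose leading transcript changed were Ift57, Wdr35, Bbs9, Rpgrip1l and Tulp3. In Ift57 a transcript of 1101 bases had 37.4% and 26.7% of the TPM and another of 1167 bases 27.0% and 35.5%. In Bbs9 the transcripts of 3382 and 3045 bases had 29.6% and 26.8%, and 29.1% and 34.7%. In Tulp3 a transcript of 1052 bases had 39.6% and 44.6% and the longest, of 3395 bases, 37.4% and 45.0%.

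The widest gaps in TPM between the libraries were in genes where the share of a short transcript differed. Rpgrip1l had an SD of 29.1% of its mean TPM, yet its scaled count ratio was 0.27 with a counting SE of 0.11. A transcript of 404 bases held 48.7% and 57.6% of its TPM from 15.4 and 17.5 counts, and the effective length of the gene went from 3669 to 3042 bases. Wdr35 had an SD of 23.8% of its mean, with a scaled log2 count ratio of 0.17 and a counting SE of 0.07. Its retained-intron transcript of 656 bases held 0% in replicate 1 and 20.1% in replicate 2, from 26.1 counts. In both genes the difference in TPM was thus larger than that in counts.

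In 6 members at least 50% of the TPM in both libraries lay on transcripts shorter than 50% of the longest: Ift46, Ift57, Dync2h1, Cc2d2a, Tulp3 and Rfx3. The heavy chain gene Dync2h1 is the clearest case, since its full transcript of 14264 bases held 17.4% and 17.6% and one of 2892 bases held 62.4% and 68%. Counted in reads the order was the reverse, with 553 and 413 counts for the long and 390 and 315 for the short transcript. For Rfx3 the transcript of 9146 bases held 23.7% and 24.8%, and one of 2743 bases 42% and 47.5%. In Ift46 a fragment-like transcript of 229 bases held 36.6% and 33.5% of the level from 138 and 80.6 counts, and its leading transcript of 1317 bases held 45.0% and 49.4%. The leading Cc2d2a transcript, of 1826 bases, held 59% and 52.4% and was not matched to the annotation used for names.

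Transcripts not annotated as protein-coding held at least 20% of the TPM in both libraries in 11 members, 23.4%, and in 20.6% of detected protein-coding genes, a share near the background. Retained introns were the main class in Ift20 (24.2% and 24.9%), Bbs2 (25.8% and 31.9%), Mks1 (33.6% and 45.6%), Tctn1 (37.9% and 38.6%), Ift81 (32.8% and 27.4%) and Bbs5 (29.2% and 22.6%). Ift88 had 24.3% and 22.3% on transcripts subject to nonsense-mediated decay. Processed transcripts, which lack an open reading frame in the annotation, led in B9d1 with 48% and 45.5%, in Ift140 with 31.9% and 37.3% and in Ift122 with 19.9% and 21.3%. All of the Tctn2 level lay on noncoding models, 74.5% and 74.2% of it on processed transcripts, since the annotation used lists that gene as a processed transcript while the RefSeq table lists it as protein-coding.

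Neighbouring genes touch several members. Exons of 9 members overlap those of genes on the opposite strand, and without a stated strand setting reads from both cannot be told apart. The largest of these were Tctn1, which shares 1574 exonic bases with the proton channel gene Hvcn1 at 1.76 and 1.79 TPM, Cep290, which shares 881 bases with 4930430F08Rik at 8.48 and 8.96 TPM, and Kif7, which shares 877 bases with 9330171B17Rik at 0.71 and 0.3 TPM. The values of these members, of Tmem67, Bbs4, Bbs12, Arl6, Ift88 and Ift57 carry that uncertainty. A protein-coding start facing away within 1000 bases was present at 9 of 47 members, 19.1%, and at 10.3% of detected protein-coding genes. The closest were Ift20 with Tnfaip1 at 29 bases and Ift46 with Arcn1 at 63 bases. Arcn1, a subunit of the COPI vesicle coat, had 106 and 125 TPM beside 128 and 129 TPM of Ift46, and Fto, the partner of Rpgrip1l at 263 bases, had 89.7 and 95.2 TPM beside 4.58 and 6.95 TPM.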

How the data were processed

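Both libraries are total RNA of 1 group, and their replicate numbers come from the labels. Genome build mm10 and annotation GENCODE M4 come from the deposited notes, with the aligner, quantifier and strand setting not given in the sources used here. Per the file headers, the deposited expected counts are estimated reads per gene or transcript, and the deposited TPM are abundances per length summed over all features, of which spike-ins held 13% and 12.6%. Per the file headers, the isoform percent is a transcript's share of its gene's TPM, and the deposited posterior standard deviation of the count (a score) served as a check of read assignment, passing 1% of the count in 2 members. No per-sample column belonged to other samples.

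Symbols, biotypes and coordinates came from GENCODE M21 (GRCm38), matched on identifiers without version. Log2 ratios are of rounded expected counts scaled by edgeR's trimmed mean of M values, TMM (edgeR 4.0.16, R 4.3.3) with 0.5 added. The two-sided exact binomial test covered genes whose mean count reached 10 and was tested on simulated data. P-values set the difference between these libraries against counting error and hold no estimate of the spread between replicates. Reads carry no stated molecular identifiers, and errors cover counting only. DESeq2 1.42.0 gave alternative size factors. SciPy 1.17.1, pandas 2.3.3 and NumPy 2.4.6 under Python 3.11.15 did the rest, and matplotlib 3.10.9 drew the plots.

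The members and lists were chosen with earlier results of these data known. Named genes were all regulator, dynein-2 and membrane members, the 3 highest and the lowest of each other group, members with a changing or noncoding leading transcript, the 4 highest and 2 lowest of the other ciliary and motile lists, and all 8 Rfx paralogues; other members are given beside them. Kif3b, Mkks and Bbip1 were named outside this rule after their values were seen. Alternatives were other scalings, filters, detection levels, transcript sets, motif definitions and each library left out.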

Additional observations from a re-analysis of the deposited data

How the results depend on the processing

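Of 77 alternative values, 54 stayed within the replicate spread or within 1.5 times the count and 23 moved. A change of direction was looked for only in the log2 differences between role groups, and none was found. With a library left out, these differences stay within the spread by construction, because the spread comes from the same 2 libraries. Over mouse genes only, the median levels were 28.13 TPM for IFT, 19.04 for the BBSome, 10.14 for the transition zone and 13.12 for the regulators, against 24.52, 16.61, 8.835 and 11.44 TPM with spike-ins in the sum. On long transcripts only, chosen after seeing the data, they were 12.18, 11.77, 7.74 and 5.688 TPM, and the log2 differences were 0.05 for IFT over BBSome, 0.66 for IFT over transition zone and 0.60 for BBSome over transition zone. On protein-coding transcripts only, the BBSome had 13.29 and the transition zone 6.01 TPM, with 2.00 for IFT over transition zone and 1.25 for BBSome over transition zone, a setting that puts Tctn2 at 0 and drops the leading Cc2d2a transcript. The mean of log2(TPM + 1) gave 1.30 for IFT over regulators and 0.50 for BBSome over transition zone. Leaving out each library gave 15.21 to 17.11 TPM for the BBSome and 8.835 to 9.2 TPM for the transition zone. The motile list had 6 genes at 5 TPM, 17 members passed at 10% noncoding TPM, 5 members had an X-box pair, and 5 members passed with no demand on fold. For each of these the cause was not tested, beyond fewer transcripts, looser or stricter thresholds by construction. Scaling by spike-in totals moved the members' median log2 ratio to 0.089, with all genes at 0.087. Comparisons between the libraries need both and had no library left out. No paired analysis was possible because there is 1 group.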
